A study of Homo sapiens with 27 samples.

Results

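The expression of 10 genes of inflammasome signalling and pyroptosis was followed in MCF10DCIS.com, a human breast epithelial line of the MCF10A family that models ductal carcinoma in situ, after exposure to calcium oxalate crystals. The genes were taken by symbol from the deposited gene tables: the sensors NLRP3, NLRP1, AIM2 and CARD8, the kinase NEK7, the adaptor PYCARD, the proteases CASP1 and CASP4, and the pore-forming proteins GSDMD and GSDME. They are 10 of the 60683 genes in each table, and 8 of them passed the filter on low counts. Of the 27 libraries 7 were untreated controls, and each of 5 crystal forms had 4, with the crystals added at 0.1 mg/mL to flasks of 500000 cells seeded 6 h earlier. The forms were plates of calcium oxalate monohydrate (COM) and 4 shapes of calcium oxalate dihydrate, namely a dumbbell-like form (DB), a spherical form (SPH), and bipyramids that were thick (TK) or thin (TN). How long the cells stayed with the crystals is not stated in the sources at hand. All groups share 1 cell line, and nothing shows that replicate libraries were grown as independent cultures, so the spread behind each p-value is that of these samples and may be technical.

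Inflammasomes are cytosolic complexes in which a sensor, often through the adaptor ASC (encoded by PYCARD), activates caspase-1, which cleaves pro-interleukin-1β, pro-interleukin-18 and gasdermin D. The freed part of a gasdermin opens pores in the plasma membrane, and the lytic death that follows is called pyroptosis. NLRP3 is known as the sensor of crystals taken up by macrophages, calcium oxalate among them, whereas NLRP1 and CARD8 are the sensors usually described in epithelial cells. Messenger RNA levels, which were measured here, do not report the cleavage by which the pathway is switched on, and in bulk RNA fewer cells of a type and less RNA per cell cannot be told apart.

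The libraries held 13115649 to 38672448 expected counts. They fall into 3 sets by the serial number in their deposited names (1 to 10, 11 to 22 and 23 to 27), and the set was a term of the model. The 4 TK libraries all lie in set 2, beside 4 of the 7 controls, while each other form has 2 libraries in set 1 and 1 in each of the other sets. The mean fragment length ran from 197.63 to 297.02 bases in set 2, where the longest was that of TN replicate C, from 257.85 to 319.1 in set 1 and from 215.44 to 247.72 in set 3. TN replicate B held 25250 counts of the liver transcript ALB, against at most 138 in any other library, and 2245.53 counts of LYZ. The TN values of CARD8, NEK7 and IL1B are therefore also given without TN replicates B and C. All 9 epithelial markers were expressed, at a summed 6437.5 to 8368 TPM, a unit of abundance scaled by transcript length and library size. Of the 12 markers of monocytes, macrophages and neutrophils 8 had a median under 0.1 TPM and only CD14 reached a median above 1 TPM. Their sum was 3.81 to 8.1 TPM in controls, 4.96 to 7.36 in COM, 5.7 to 9.93 in DB, 7.85 to 10.06 in SPH, 4.57 to 6.98 in TK and 3.18 to 57.12 in TN, the highest being TN replicate B. The 4 lymphocyte markers summed to at most 0.12 TPM in any library, the 3 endothelial ones to 0.55 to 6.59 TPM and the 5 fibroblast ones to 2.87 to 7.88 TPM; their part in the results was not tested.

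Among the sensors, NLRP3 and AIM2 were at or near 0 in these epithelial cells, NLRP1 was expressed at a low level and CARD8 was readily measured. AIM2, a sensor of cytosolic DNA, had 6 counts over all 27 libraries and none in 22 of them. A count of 0 allows up to 3 counts, which in those 22 libraries corresponded to 0.145 to 0.478 TPM of AIM2, counting error only. NLRP3 had 90 counts in all, from 0 to 12 per library, with none in 6 libraries, and a median of 0.04 TPM. In the controls its counts were 2, 0, 0, 2, 0, 1 and 2. In COM they were 9, 3, 2 and 5, in DB 12, 7, 0 and 9, in SPH 6, 4, 1 and 1, in TK 0, 1, 1 and 0, and in TN 6, 7, 6 and 3. In these counts, which are not scaled by depth, the lowest libraries of COM, DB and SPH overlapped the controls. TK lay within the control range and the 4 TN libraries lay above it. In TPM the lowest TN library and the highest control had the same value, 0.05. Both genes failed the filter; in a fit without it, edgeR's quasi-likelihood test gave NLRP3 an adjusted p of 0.247 for COM, 0.212 for DB, 0.945 for SPH and 0.197 for TN, so no rise of NLRP3 was shown at this depth. Of 9 further sensors, NLRP2, NLRP6, NLRP7, NLRP10, NLRP12 and MEFV also had medians of at most 0.05 TPM. NLRC4, the sensor that works with NAIP on bacterial flagellin and secretion systems, had a median of 0.13 TPM, while NAIP itself had 1.94 TPM. IFI16, a nuclear DNA sensor, was far higher at 33.38 TPM. The sensors at or near 0 in this line were therefore NLRP3, AIM2, NLRP2, NLRP6, NLRP7, NLRP10, NLRP12 and MEFV.

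**Figure D1:**
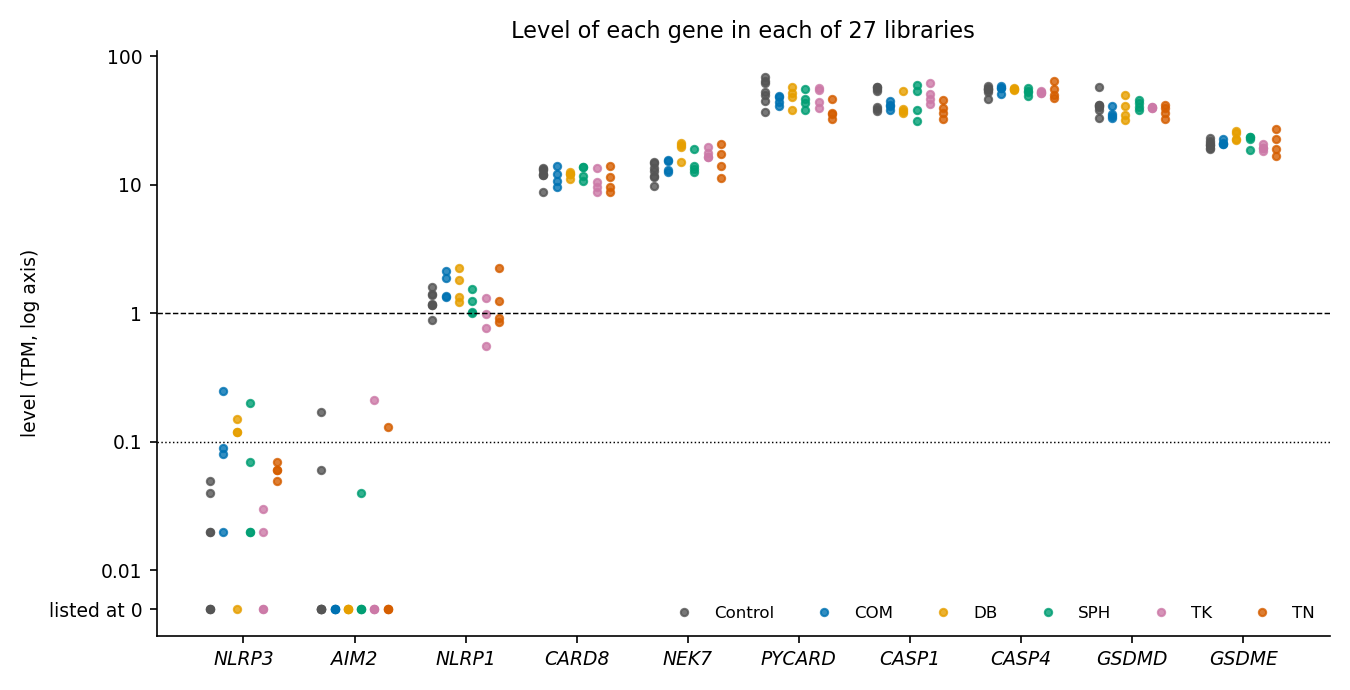
Level of each of the 10 genes in each of the 27 libraries, in TPM on a log axis, with points coloured by group and libraries listed at 0 drawn at the bottom. The dashed line marks 1 TPM and the dotted line 0.1 TPM: NLRP3 and AIM2 sit mostly below the dotted line (medians 0.04 and 0 TPM), NLRP1 scatters around the dashed line and the other 7 genes lie above 8 TPM in every library.

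NLRP3 lies at chr1:247416156-247449108 on the plus strand and CARD8 at chr19:48180770-48255946 on the minus strand (GRCh38, GENCODE 29). Their upstream sequences, from 250 to 18 bases before the start in the RefSeq promoter table (GRCh38.p14), are shown as those of a sensor at or near 0 and of the most highly expressed of the 4 sensors, with the letters TATAAA in capitals. They span chr1:247415923-247416155 and, on the minus strand, chr19:48255964-48256196.
NLRP3: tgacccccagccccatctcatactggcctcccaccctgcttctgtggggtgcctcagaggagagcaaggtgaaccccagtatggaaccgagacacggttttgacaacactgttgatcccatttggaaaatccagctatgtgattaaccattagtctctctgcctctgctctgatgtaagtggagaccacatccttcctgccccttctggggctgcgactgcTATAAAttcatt
CARD8: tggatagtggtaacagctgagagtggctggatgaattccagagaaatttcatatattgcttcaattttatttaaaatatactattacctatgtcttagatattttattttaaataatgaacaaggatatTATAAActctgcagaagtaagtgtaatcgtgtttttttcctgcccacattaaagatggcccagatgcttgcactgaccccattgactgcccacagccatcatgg
TATAAA begins 29 bases before the start of NLRP3 in the RefSeq table, which differs from the GENCODE start above, and 121 bases before that of CARD8, and 10.4% of 35093 promoter windows of the same length hold it on either strand. Neither window holds the letters searched for AP-1 (TGANTCA, in 6.27% of windows), nor the core of the interferon-stimulated response element (in 2.78%), nor a match to the NF-kB motif (in 9.26%), on either strand. The CARD8 window is 35.6% G or C with 1 CpG, and that of NLRP3 is 51.9% with 3 CpGs. Both lie below the medians of all promoter windows, 57.9% and 10 CpGs. A match is a run of letters, and no factor's binding was measured.

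NLRP1 (chr17:5499427-5619424, minus strand), which is activated when proteases degrade its amino-terminal part, had a median of 1.25 TPM and ranged from 0.56 to 2.25 TPM. In CPM, the counts scaled by library size and TMM factor, the controls ran from 3.98 to 6.83 with a median of 5.02. COM had 6.30, 9.16, 5.63 and 8.06 CPM, DB 7.58, 5.13, 5.14 and 9.60 CPM, and TK 2.10, 4.70, 3.19 and 3.76 CPM. COM and DB overlapped the upper controls, TK overlapped the lower ones, and every TK library lay below every COM and DB library. None of the changes against controls passed the test: the log2 fold change was 0.40 ± 0.18 (SE) in COM (edgeR adjusted p = 0.219), 0.30 ± 0.18 in DB (adjusted p = 0.314) and -0.41 ± 0.20 in TK (adjusted p = 0.183).

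CARD8, which like NLRP1 is held inactive by dipeptidyl peptidases and recruits caspase-1 directly, fell in CPM with COM, TK and TN. Controls had 13.3 to 17.1 CPM with a median of 14.9. COM had 10.8, 11.1, 10.8 and 13.8 CPM, TK 8.85, 11.5, 10.2 and 13.1 CPM, and TN 9.91, 10.3, 11.8 and 14.3 CPM. The highest COM and TN libraries, both of set 3, fell within the control range, whose own set 3 library was its highest at 17.1 CPM, and TK lay wholly below the controls. The log2 fold change was -0.39 ± 0.10 in COM (edgeR adjusted p = 0.0159), -0.44 ± 0.10 in TK (adjusted p = 0.00464) and -0.41 ± 0.10 in TN (adjusted p = 0.00678). It was -0.17 ± 0.10 in DB (adjusted p = 0.272), which did not pass. Without TN replicates B and C the TN value was -0.42 (adjusted p = 0.0440).

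Per transcript length CARD8 did not pass the test. In TPM CARD8 was 12.1 ± 1.6 (SD, n = 7) in controls, 11.6 ± 1.9 (n = 4) in COM, 10.6 ± 2.0 in TK and 10.995 ± 2.35 in TN, and all groups overlapped. The estimated mean length of CARD8 transcripts was shorter on average in COM, TK and TN than in controls. It was 1508 to 2221 bases in controls, 1319 to 1481 in COM, 1484 to 1706 in TK and 1153 to 1881 in TN. TK and TN thus overlapped the controls, and single libraries did not always follow their counts. With the effective length as an offset in the same edgeR fit the log2 fold change was -0.07 in COM (adjusted p = 0.843), -0.19 in TK (adjusted p = 0.376) and -0.10 in TN (adjusted p = 0.682), so no call of CARD8 was left. Without COM replicate A or C the COM call ended too, with adjusted p up to 0.0625. Exons of CARD8 overlap opposite-strand exons of ZSWIM9 (313 bases), CARD8-AS1 (27 bases) and AC011466.1 (1185 bases), whose medians were 5.11, 0.35 and 0.1 TPM, and the strand setting of the counting is not known. The part of transcript choice or of these overlaps in the CARD8 values was not tested.

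**Figure D2:**
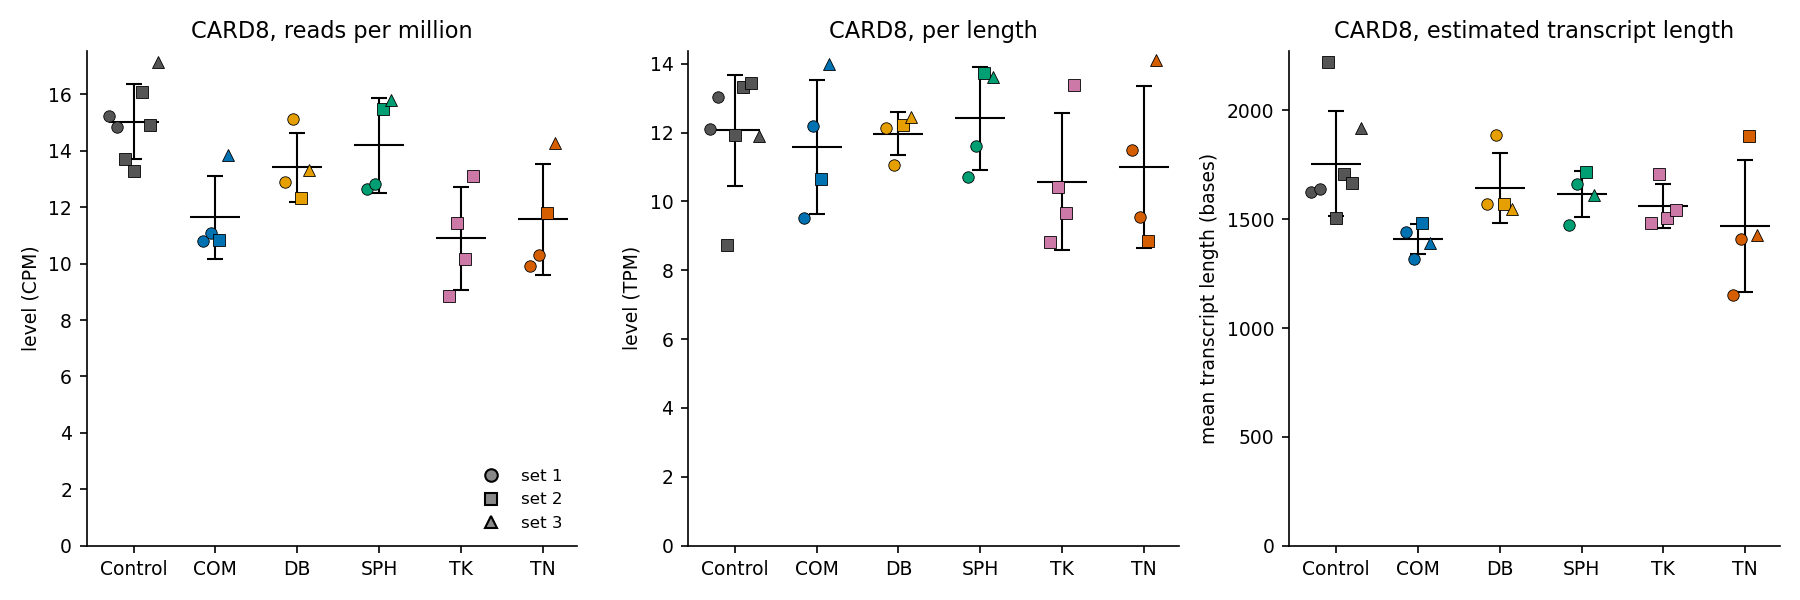
CARD8 by group in CPM, in TPM, and as the estimated mean transcript length in bases; each point is a library, its shape gives the library set, and bars show the group mean and SD. The groups overlap more in the middle panel, where the group means lie between 10.6 and 12.4 TPM, and the COM libraries span 1319 to 1481 bases on the right.

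NEK7 (chr1:198156963-198322420, plus strand), a mitotic kinase that also binds NLRP3 and is needed for its assembly, rose with DB, TK and TN, although NLRP3 itself was at or near 0. Controls had 41.3, 45.3, 43.1, 36.4, 35.3, 39.7 and 29.5 CPM. DB had 59.6, 64.5, 54.3 and 46.4 CPM and TK 46.5, 50.6, 50.8 and 55.9 CPM, so that every library of both lay above every control. TN had 64.6, 50.3, 64.1 and 32.8 CPM, with the 3 highest above all controls and TN replicate D within them. The log2 fold change was 0.55 ± 0.10 in DB (edgeR adjusted p = 0.00149), 0.39 ± 0.11 in TK (adjusted p = 0.0131) and 0.45 ± 0.10 in TN (adjusted p = 0.00455). COM and SPH did not pass: COM had 46.9, 49.4, 47.1 and 41.3 CPM and a log2 fold change of 0.27 ± 0.10 (adjusted p = 0.131), and SPH had 46.3, 56.0, 38.3 and 44.4 CPM and 0.27 ± 0.11 (adjusted p = 0.661).

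With the effective length as an offset the rise of NEK7 was 0.55 in DB (adjusted p = 0.00225), 0.36 in TK (adjusted p = 0.0300) and 0.43 in TN (adjusted p = 0.0107), so all these calls were kept. Within the library sets, NEK7 was higher in DB by a log2 of 0.52 in set 1, 0.49 in set 2 and 0.65 in set 3. In TK, which has set 2 alone, the value was 0.40 (adjusted p = 0.0087). The TN value was less even, at 0.41 in set 1, 0.73 in set 2 and 0.15 in set 3. The TN call ended without TN replicate C (0.30, adjusted p = 0.0739), without TN replicates B and C (0.35, adjusted p = 0.0843) and with fragment length as a covariate (0.26, adjusted p = 0.0564). With the replicate letter in place of the library set in the edgeR model, the NEK7 calls in DB, TK and TN all ended. For TK the adjusted p was then 0.127.

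**Figure D3:**
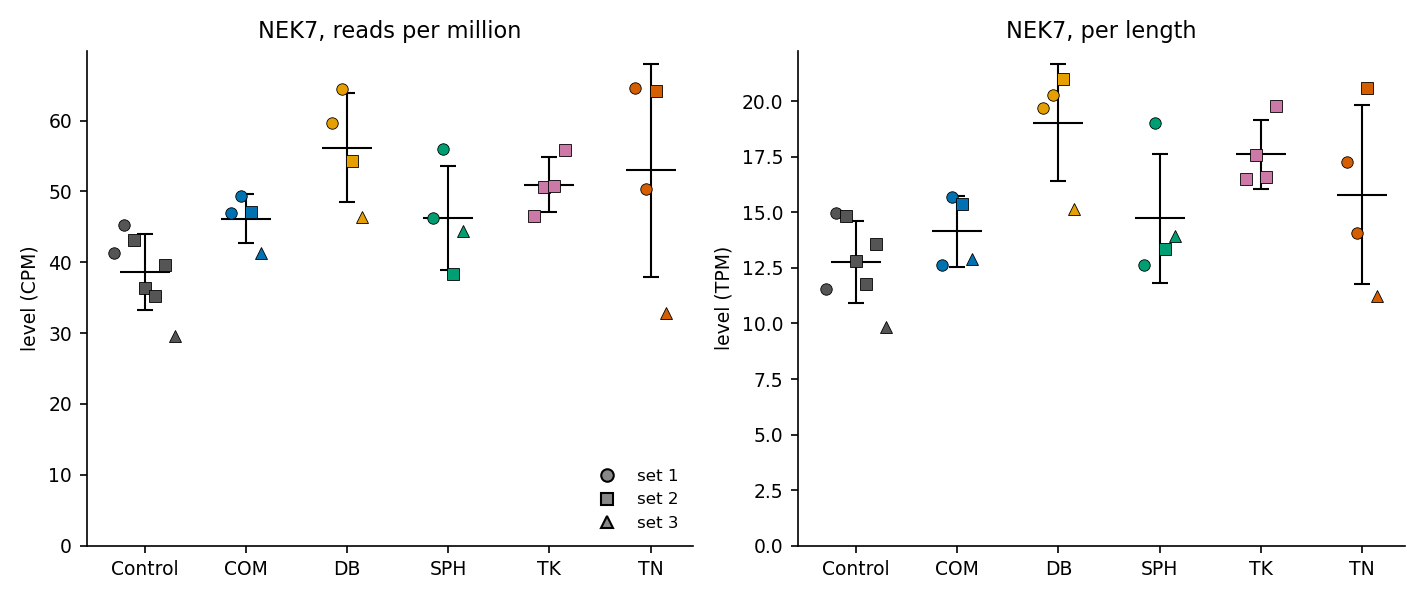
NEK7 by group in CPM and in TPM; each point is a library, its shape gives the library set, and bars show the group mean and SD. In CPM all DB libraries (46.4 to 64.5) and all TK libraries (46.5 to 55.9) lie above the highest control (45.3).

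PYCARD (chr16:31201485-31203450, minus strand), whose product ASC forms the filament on which caspase-1 gathers, was among the highest of the 10 genes at a median of 46.77 TPM. Controls spread from 14.8 to 32.1 CPM, with a median of 22.4. TN had 16.7, 15.1, 17.9 and 15.7 CPM and TK 22.2, 15.4, 23.9 and 16.8 CPM, all within the control range. The controls of set 2 alone had 21.6 to 32.1 CPM. Below them lay TK replicates B and D and TN replicate C, the TN library of that set. Neither form passed the test, with a log2 fold change of -0.41 ± 0.14 in TN (edgeR adjusted p = 0.0584) and -0.36 ± 0.15 in TK (adjusted p = 0.101). The TN value passed by DESeq2 (-0.42, adjusted p = 0.0307) and with upper-quartile scaling (-0.43, adjusted p = 0.0434), and both values passed without control replicate B, the lowest control (TN adjusted p = 0.0182, TK adjusted p = 0.0446). The values in COM and SPH were -0.12 ± 0.14 and -0.18 ± 0.14. An exon of the antisense gene PYCARD-AS1 overlaps it by 1821 bases; that gene had a median of 0.11 TPM, and its part in the PYCARD values was not tested.

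CASP1 and CASP4 were expressed at similar levels in all groups, and neither passed the test with any form. CASP1 (chr11:105025443-105035250, minus strand) had a median of 41.41 TPM and CASP4 (chr11:104942866-104969436, minus strand), the human protease that senses cytosolic lipopolysaccharide, had 54.75 TPM, the highest of the 10 genes. Their order is not beyond the spread, since CASP1 ran from 31.52 to 61.38 TPM and CASP4 from 46.61 to 63.6 TPM. CASP1 was 26.6 to 34.4 CPM in controls, 28.0, 29.8, 26.8 and 26.2 CPM in TK, and 25.7, 26.9, 29.2 and 23.1 CPM in DB. Both forms overlapped the lower controls. Of the TK libraries, all of set 2, only replicate B reached the controls of that set, which had 29.6 to 34.4 CPM. The log2 fold changes of CASP1 were -0.21 ± 0.07 in TK (edgeR adjusted p = 0.0506) and -0.20 ± 0.07 in DB (adjusted p = 0.0727). CASP1 in TK crossed the threshold with 4 of 14 other settings, DESeq2 among them (-0.20, adjusted p = 0.0474). In the remaining 10 it did not pass, and over all 14 the value ran from -0.24 to -0.10. In TPM CASP1 was not lower in TK, at 50.4 ± 8.0 (SD, n = 4) beside 48.6 ± 9.2 (n = 7) in controls. CASP1 is near-identical in part to CARD16 and CARD17, between which the counting may split reads, and its values are uncertain for that reason. CASP4 varied little, at 43.0 to 52.8 CPM in controls, with log2 fold changes of 0.07 ± 0.06 in COM and -0.12 ± 0.06 in TK (adjusted p = 0.593 and 0.223). CASP5, the close relative of CASP4, was listed at a median of 0 TPM.

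Of the gasdermins, GSDME was lowest in TK in CPM and GSDMD did not pass the test. GSDMD, the substrate of caspase-1 and caspase-4, had a median of 39.91 TPM and ran from 35.8 to 59.3 CPM in controls. TK had 38.0, 35.9, 40.4 and 36.7 CPM, low within the controls. Those of set 2, which holds all TK libraries, ran from 39.0 to 59.3 CPM, so only the highest TK library lay among them. In TK the log2 fold change of GSDMD was -0.27 ± 0.10 (edgeR adjusted p = 0.0708). That value passed with upper-quartile scaling (-0.30, adjusted p = 0.0444). GSDME (chr7:24698351-24758113, minus strand), another pore-forming gasdermin, had a median of 21.11 TPM. It was 33.5, 29.4, 31.3, 33.3, 34.8, 30.1 and 29.3 CPM in controls and 27.1, 27.9, 26.7 and 27.7 CPM in TK, so that each TK library lay below each of the other 23 libraries. In TPM TK (18.2 to 20.6) overlapped the controls (18.8 to 22.96), and TN replicate A, at 16.7, lay below every TK library. The log2 fold change in TK was -0.22 ± 0.08 (adjusted p = 0.0466). This call sits at the threshold: it ended in 20 of the 27 fits that left out 1 library, with values from -0.24 to -0.18 and adjusted p up to 0.137. It also ended in 9 of 14 other settings, the effective-length offset among them. DB, by contrast, had 32.4, 33.8, 37.8 and 36.8 CPM, overlapping the upper controls, and 0.16 ± 0.07 (adjusted p = 0.168).

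**Figure D4:**
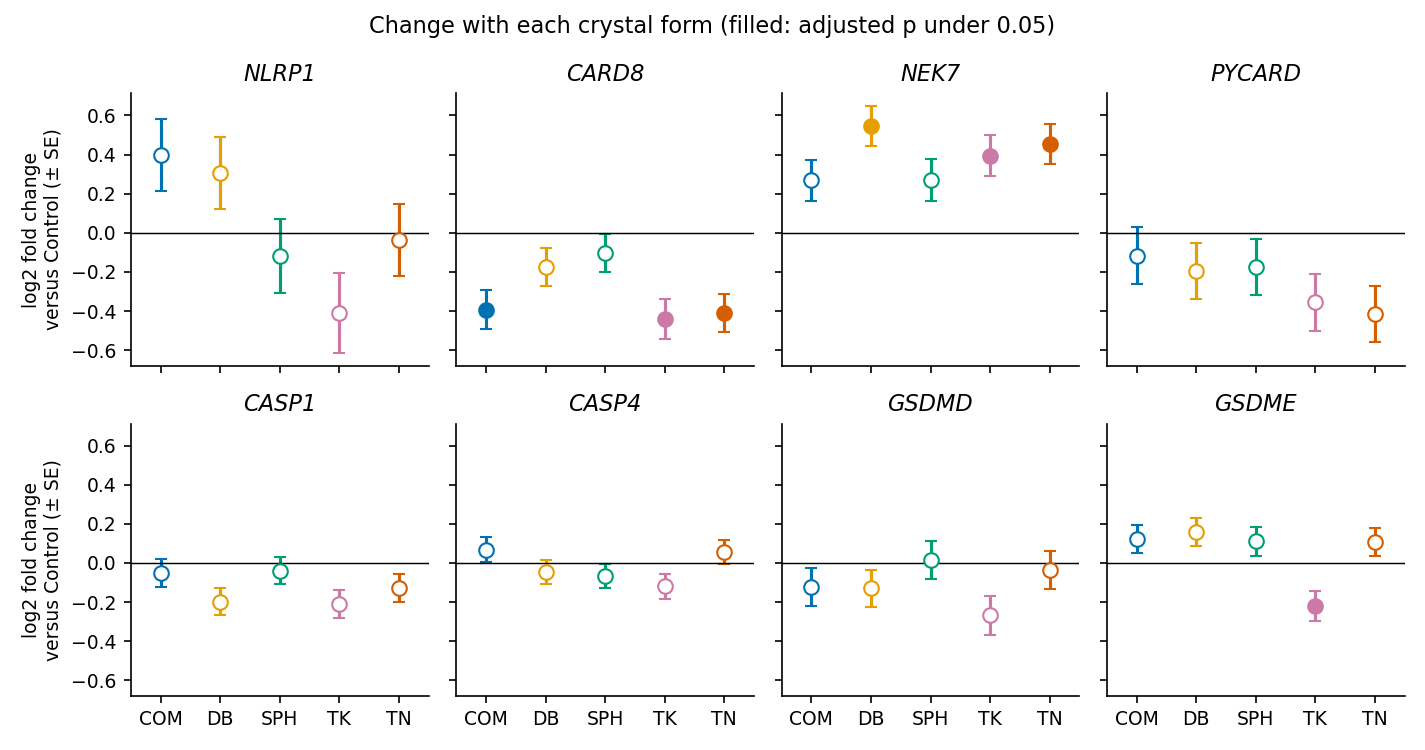
Log2 fold change versus control with its standard error for the 8 tested genes and 5 crystal forms, from 1 edgeR fit; filled points passed the test at an adjusted p under 0.05. The filled points are NEK7 in DB, TK and TN (0.55, 0.39 and 0.45), CARD8 in COM, TK and TN (-0.39, -0.44 and -0.41) and GSDME in TK (-0.22).

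Counted together, 3 of the 8 tested genes (NEK7, CARD8 and GSDME) differed among the 6 groups, where 23.2% of all 16173 genes did. COM changed 1 of 8 (6.36% of all genes), DB 1 of 8 (10% of all genes), TK 3 of 8 (15.4%) and TN 2 of 8 (11.7%). With SPH edgeR called 0 of 8, and 0.111% of all genes; 1 of the 8, NEK7, had an unadjusted p under 0.05, and DESeq2 called 0 as well. These shares are counts of few genes, and the comparisons share their controls. The median log2 fold change of the 8 was 0.01 in COM, -0.09 in DB, -0.05 in SPH, -0.24 in TK and -0.04 in TN, beside -0.01, 0.00, 0.00, -0.02 and 0.00 over all genes.

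The 10 pairs of crystal forms, all at the same dose, gave 5 calls in 80 tests of these genes, where 5.58% of all tests passed over all genes and pairs, and all 5 set TK below another form. Over all genes 14.5% differed between TK and COM, 17.8% between TK and DB and 5.6% between TK and SPH. GSDME was lower in TK than in DB by a log2 of -0.38 ± 0.09 (edgeR adjusted p = 0.00428), than in COM by -0.34 ± 0.09 (adjusted p = 0.0104) and than in SPH by -0.33 ± 0.09 (adjusted p = 0.0285). NLRP1 was lower in TK than in COM by -0.81 ± 0.24 (adjusted p = 0.0217) and than in DB by -0.72 ± 0.24 (adjusted p = 0.0357). With p-values adjusted over all genes and all 10 pairs, NLRP1 in TK against DB no longer passed (adjusted p = 0.0815). The libraries of TK share set 2 with only 1 library of each other form. The fit therefore compared TK with libraries of other sets through the set terms, which assume that a set shifts every group alike. Against the 1 COM library of set 2, GSDME in TK was lower by -0.23 and NLRP1 by -0.71. GSDME in TK against DB and against COM passed in each of the 27 fits that left out 1 library. Of 15 other settings, the call against DB was kept in all 15, while the call against COM ended in 3. NLRP1 in TK against COM did not pass without COM B, TK A or TK C (adjusted p up to 0.0909). NLRP1 in TK against DB did not pass without DB A, DB D, SPH C, TK A, TK C or TK D (adjusted p up to 0.136). GSDME in TK against SPH did not pass without SPH A, B or C or without any 1 of the TK libraries (adjusted p up to 0.0858).

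The thick and thin bipyramids, which are both dihydrate and differ in shape, gave no call between them. GSDME came nearest, higher in TN than in TK by a log2 of 0.33 with a 95% interval of 0.14 to 0.51 (edgeR adjusted p = 0.148), and for CASP4 the difference was 0.17 with an interval of 0.02 to 0.33 (adjusted p = 0.412). For NEK7 the difference of TN from TK was 0.06 with a 95% interval of -0.21 to 0.32, and for CARD8 it was 0.03 with an interval of -0.22 to 0.28. NEK7 in DB and in COM, a dumbbell dihydrate and a plate of monohydrate, differed by 0.28 with an interval of 0.04 to 0.52, which did not pass over all genes (adjusted p = 0.407). CARD8 was lower in TK than in SPH by -0.34, interval -0.59 to -0.08 (adjusted p = 0.101), also short of the threshold.

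The genes around these 10 were taken as 7 lists of 77 symbols, of which 55 were tested. With COM 10 of the 55 rose and 1 fell, where 3.94% and 2.42% of all genes did. With DB 12 rose and 2 fell (5.92% and 4.1% of all genes), with TK 8 rose and 7 fell (8.04% and 7.33%), and with TN 11 rose and 2 fell (6.84% and 4.88%). None passed with SPH. The cytokine list holds the substrates of caspase-1 and their relatives and inhibitors. IL1B, the precursor of interleukin-1β, rose by a log2 of 1.06 ± 0.13 in COM (edgeR adjusted p = 1.46e-05), 0.75 ± 0.14 in DB and 0.56 ± 0.13 in TN, from 98.8 ± 35.0 TPM (SD, n = 7) in controls to 263 ± 116 (n = 4) in COM. Without TN replicates B and C the IL1B value in TN was 0.51 (adjusted p = 0.0670). IL1A, an alarmin released on membrane rupture, rose by 0.84 ± 0.10 in COM (adjusted p = 6.44e-06), 0.59 in DB and 0.67 in TN. IL1RN, the receptor antagonist of both, rose by 0.72 ± 0.15 in COM and 0.90 ± 0.15 in DB (adjusted p = 0.00362 and 0.000418). IL18 was high in every group, at 164 ± 23 TPM in controls, and did not pass. In this list 3 of 8 rose with COM and with DB, 2 with TN and none with TK or SPH.

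Of the other sensors only NAIP and IFI16 were tested. IFI16 rose with 4 forms, by 0.29 ± 0.07 in COM, 0.35 ± 0.07 in DB, 0.37 ± 0.08 in TK and 0.52 ± 0.07 in TN (adjusted p = 3.72e-05 in TN). NAIP fell in TK by 0.80 on the log2 scale (SE 0.20, adjusted p = 0.00668). Among the other gasdermins and rupture proteins, 2 of 4 tested fell with TK and 1 with TN, where 7.33% and 4.88% of all genes fell. GSDMB fell by 0.94 in both TK and TN (adjusted p = 0.00651 and 0.00502), from 4.05 ± 0.94 TPM in controls to 1.84 ± 0.68 and 1.995 ± 0.93 (n = 4), and NINJ1, which ruptures the membrane after pore formation, fell by 0.45 in TK (adjusted p = 0.00826). CASP8, an initiator caspase of the death receptor pathway, rose by 0.30 in TK and 0.31 in TN.

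Of 15 tested regulators, 4 rose and 1 fell with COM (3.94% and 2.42% of all genes) and 5 rose and 2 fell with DB (5.92% and 4.1%). With TK 3 rose and 1 fell (8.04% and 7.33%), and with TN 3 rose (6.84%). BIRC3, a ubiquitin ligase that is also a target of NF-kB, rose by 0.72 ± 0.10 in COM, 0.43 in DB, 0.50 in TK and 0.58 in TN. RIPK1, a kinase of cell death and NF-kB signalling, rose by 0.30 in COM, 0.33 in DB and 0.37 in TK. MLKL, which carries out necroptosis, fell by 0.35 in COM and by 0.25 in DB. TXNIP, which binds NLRP3 and thioredoxin, fell by 0.71 in TK (adjusted p = 0.000877), and BRCC3, which removes ubiquitin from NLRP3, rose by 0.44 in TK and 0.32 in TN. CFLAR, an inhibitor of caspase-8, rose by 0.33 in COM and 0.27 in DB, and BIRC2 and DPP8 rose in DB, by 0.28 and 0.30.

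Of 14 tested genes for ion flux, lysosomes and entry, 1 rose with COM (3.94% of all genes), 3 with DB (5.92%) and 2 with TN (6.84%). With TK 2 rose and 2 fell (8.04% and 7.33%). TXNRD1, a thioredoxin reductase, rose by 0.60 ± 0.09 in TK (adjusted p = 8.15e-05), 0.50 in TN and 0.33 in DB. CTSB, the lysosomal protease cathepsin B, fell by 0.40 in TK, and P2RX4, an ATP-gated channel, fell by 0.28. P2RX7, the channel through which ATP is known to trigger NLRP3, was at a median of 0 TPM. TRPM2 rose by 0.45 in TK, TLR3 by 0.45 in COM and 0.49 in TN, and TICAM1 and PANX1 by 0.41 and 0.29 in DB. Of the 8 guanylate-binding and interferon genes tested, IRF1 rose by 0.39 in COM and 0.42 in TN and CGAS by 0.29 in TK and 0.41 in TN, while GBP2 fell by 0.46 in TK and IRF2 by 0.30 in TN. Of the calls named in these lists, that of PANX1 in DB ended in 14 of the 27 fits that left out 1 library, TLR3 in COM in 9, P2RX4 in TK in 8, CFLAR in DB in 5, and MLKL in DB, TRPM2 in TK and BRCC3 in TN in 4 each, and each of the others in at most 2.

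**Figure D5:**
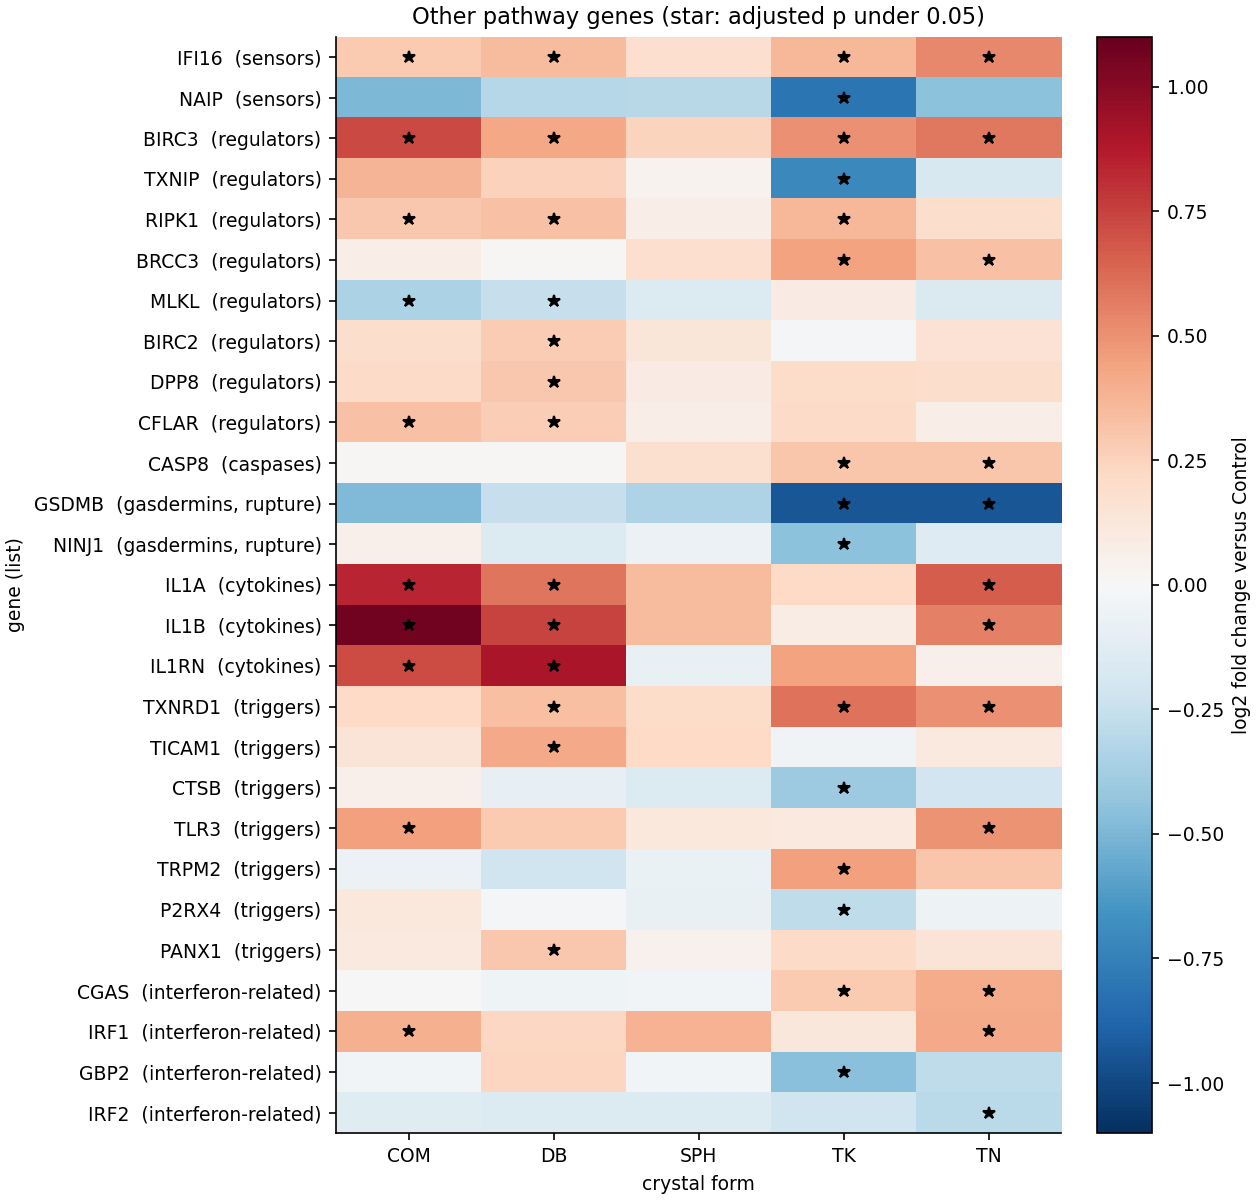
Log2 fold change versus control of 27 other pathway genes, called with at least 1 form and among the 8 of smallest adjusted p in their list, with each crystal form, by colour from lower (blue) to higher (red), with a star where the adjusted p was under 0.05. The SPH column has no star, IL1A and IL1B are starred in COM, DB and TN, and GSDMB is starred in TK and TN (-0.94 in both).

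Across the 27 libraries, after each library set was centred, the genes whose log2 CPM followed NEK7 most closely among 11125 were AGPAT5 (Pearson r = 0.915) and GMFB (0.893). For CARD8 they were BDKRB2 (0.851) and ENC1 (0.824), and for GSDME DYNC2LI1 (0.819) and CIART (0.810). These values describe libraries that share their depth and groups. Among the 28 pairs of the 8 tested genes the closest was PYCARD and GSDMD (0.614), and the most opposed were CASP1 and NEK7 (-0.574).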

How the data were processed

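RNA was polyA-selected and sequenced in 27 libraries. The authors deposited per gene an RSEM expected count, TPM and the mean and effective transcript lengths, per the file headers. Trim Galore, RSEM and Bowtie2 with GRCh38 are named in the submitters' processing notes. The annotation release and the strand setting of the counting were not stated there. Expected counts were rounded, filtered by edgeR's filterByExpr on the 6 groups (16173 genes kept), scaled by TMM and fitted with edgeR 4.0.16 (R 4.3.3; quasi-likelihood test) on group and library set. Standard errors are the log2 fold change over the root of F, and 95% intervals use 19 residual degrees of freedom. P-values were adjusted by Benjamini-Hochberg over all genes; under 0.05 is a call. Levels within a gene are CPM, between genes TPM; a median of 1 TPM or more is expressed, under 0.1 at or near 0. Library totals ran from 13115649 to 38672448, and the floors of 3 counts cover counting error only. Alternatives used limma 3.58.1 and DESeq2 1.42.0. The scripts were tested on simulated data. All 10 genes are named, and other pathway genes where called, at most 8 per list; 1 of these is not reported here. The members and lists were chosen with earlier results of these data known. Replicate letters were not taken as pairs. Deviations correlated above 0.1 in 27 of 42 same-lettered pairs within a set (median r 0.171) and in 31 of 62 differently lettered ones (0.101). Across sets they did so in 1 of 18 same-lettered pairs (median r 0.019) and in 15 of 178 others (-0.070). Whether a letter marks a shared batch is not known.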

Additional observations from a re-analysis of the deposited data

Results flagged for a closer look

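CARD8 in COM replicate D, at 13.8 CPM, stood apart from the other 3 COM libraries, which had 10.8, 11.1 and 10.8 CPM. The gap between it and the nearest of the others is large for the range of the group. It is the only COM library of set 3, whose control was also the highest of the controls at 17.1 CPM. Of 48 gene and group combinations examined this was the 1 that stood out, and chance gives about 1 in 20.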

How the results depend on the processing

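Of the 12 calls of these genes, against controls and between forms, 12 were kept with DESeq2, 11 with limma voom, 11 with RLE scaling, 12 with upper-quartile scaling, 12 with a stricter filter and 10 with almost no filter. With no set term 10 were kept, and 10 with fragment length as a covariate. Fewer were kept with only the 2 groups compared (8), with the replicate block (6) and with the effective length as an offset (5). The number of calls changed as follows. With the effective length as an offset it was 1 among all groups, 0 for COM, 1 for TK, 1 for TN and 2 between forms. With the replicate block in place of the set term it was 0 for COM, 0 for DB, 1 for TK, 0 for TN and 9 between forms; the letters were not taken to pair samples. With only the 2 groups compared it was 2 for COM and 1 between forms, with no set term 0 for COM, with upper-quartile scaling 5 for TK, and with fragment length as a covariate 1 for TN. Over all genes the calls moved too. For COM they went from 1029 of 16173 to 543 with no set term and 1021 of 15472 with only the 2 groups compared. For TK against COM that last setting gave 1091 of 14828, from 2349 of 16173. For TK against controls upper-quartile scaling gave 2539, from 2487. Without TN replicates B and C, chosen after seeing the data, the number of calls of these genes was 1 for TN. Within set 1 it was 0 for COM; within set 2, 0 for COM, 0 for DB, 1 for TN and 1 between forms; within set 3, 0 for COM, 0 for DB and 0 for TN. Leaving out 1 library gave 2 to 4 calls among all groups, 0 to 1 for COM (0 without COM A or COM C), 1 to 2 for DB (2 without control B), 2 to 6 for TK (6 without control B), 1 to 3 for TN (1 without TN C) and 2 to 5 between forms (3 without SPH C, 2 without TK A or TK C). Values that changed sign had not passed the test, but for IRF2: PYCARD in COM was 0.14 within set 1 and 0.11 within set 3 and ran from -0.22 to 0.050 with 1 library left out, CASP4 in COM was -0.12 within set 3, PYCARD in SPH 0.0085 within set 1, NEK7 in SPH -0.016 within set 2 and IRF2 in TN 0.018 within set 2. Within set 3 each group has 1 library, and within set 2 each form but TK, so there a lone library is assumed to vary like the others and a lost call says little; the cause of the other changes was not tested. Of 50 calls of the named pathway genes 50 were kept with DESeq2, 49 without TN replicates B and C, 39 with the length offset and 34 with the replicate block. Depth limits NLRP3 and AIM2, at no more than 12 counts a library.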
